A study of Homo sapiens with 9 samples.

Results

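The miR-183/96/182 cluster is a group of 3 miRNA hairpins, hsa-mir-183, hsa-mir-96 and hsa-mir-182, that lie on 1 primary transcript. They were taken by name from the count table, 3 of its 1485 hairpin rows. Small RNA had been sequenced from 2 human cell lines. HEK293E descends from HEK293, a line made from human embryonic kidney. K562 comes from a chronic myeloid leukaemia and has traits of red cell precursors. Controls received siGFP, directed at green fluorescent protein, or siControl, and the knockdown arm received siERH-3 or siERH-5, 2 siRNAs against ERH. HEK293E cells were transfected on day 0 and day 3 and harvested on day 5. siGFP, siControl and siERH-3 have replicates 1 and 2 in this line and siERH-5 has replicate 2 only, which gives 4 control and 3 siERH libraries. K562 cells were electroporated and harvested 4 days later, with 1 siGFP and 1 siERH-5 library. No labelled sample was left untransfected. Nothing in the labels says that replicates came from separate stocks of cells, so p-values measure the spread between these libraries, which may be technical.

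MiRNAs are cut from a long primary transcript by the Microprocessor, made of the RNase DROSHA and its partner DGCR8, and then by DICER. Hairpins of 1 transcript are made in equal number, but each is cut and each product decays at its own rate, so their mature levels can differ. ERH is a small nuclear protein that binds DGCR8 and is known to help the Microprocessor with poor hairpins that have a good neighbour. The miR-183/96/182 cluster is best known from sensory cells of the eye and ear, where changes in the seed of miR-96 cause hearing loss, and from epithelial tumours, where its members are often high.

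The loci are intergenic in GENCODE release 29 (GRCh38) and overlap no other annotated gene on either strand. All 3 are on the minus strand of chromosome 7, within 4632 bases. Transcription meets hsa-mir-183 first (MIR183, 129774905 to 129775014), then hsa-mir-96 (MIR96, 129774692 to 129774769) after 135 bases, and hsa-mir-182 (MIR182, 129770383 to 129770492) after a further 4199 bases. The next annotated gene upstream on this strand is the lincRNA AC084864.1, 8356 bases before hsa-mir-183.

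The mature 5p sequences show how closely the members are related. They are those of RefSeq (GRCh38.p14), written 5′ to 3′ with the seed, bases 2 to 8, in capitals.
hsa-miR-183-5p: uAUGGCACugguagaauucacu
hsa-miR-96-5p: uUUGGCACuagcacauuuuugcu
hsa-miR-182-5p: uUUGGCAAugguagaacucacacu
The 3 seeds differ, so the members form 3 seed groups. Counted from the 5′ end and written with the first-named miRNA's base first, hsa-miR-183-5p and hsa-miR-96-5p differ in the seed by A2U, and hsa-miR-96-5p and hsa-miR-182-5p by C8A. hsa-miR-183-5p and hsa-miR-182-5p differ by both A2U and C8A there, but over the 22 positions they share, 18 are identical. hsa-miR-183-5p and hsa-miR-96-5p are identical at 13 of 22 positions. Beyond the seed hsa-mir-182 is thus closer to hsa-mir-183 than to hsa-mir-96.

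The hairpins of the downstream members are printed to show both arms, since the table counts whole hairpins and does not separate the arms. Capitals mark the mature 5p arm and, after the loop, the mature 3p arm.
hsa-mir-96 hairpin: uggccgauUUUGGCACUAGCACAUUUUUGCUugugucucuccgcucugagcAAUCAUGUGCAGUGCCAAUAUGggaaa
hsa-mir-182 hairpin: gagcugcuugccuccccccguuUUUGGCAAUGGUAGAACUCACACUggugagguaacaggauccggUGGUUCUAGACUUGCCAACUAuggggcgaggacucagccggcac
Outside the cluster, no mature human miRNA in RefSeq came within fewer than 6 mismatches of a member's 5p arm over the first 18 bases, compared without gaps.

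The libraries held 2609929 to 3320017 hairpin counts. ERH mRNA was not measured, so the knockdown could not be checked. The cell line labels were checked on miRNAs of the blood. The erythroid hairpins hsa-mir-144, hsa-mir-451a and hsa-mir-486-1 summed to 133092 and 146367 counts in the K562 libraries and to 2472 to 4671 in the HEK293E libraries. Those of other blood lineages, hsa-mir-142, hsa-mir-155 and hsa-mir-223, summed to 206785 and 262867 counts in K562 and to 310 to 1407 in HEK293E, with hsa-mir-155 at 0 and 2 counts in K562. Of the muscle hairpins, hsa-mir-206 had at most 2 counts in any HEK293E library and 0 in K562. The others were detected: hsa-mir-1-1 had 17 to 100 counts in HEK293E and 8 and 23 in K562. hsa-mir-133a-1 had 25 to 75 counts in HEK293E and 13 and 50 in K562.

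All 3 members were detected in every library. hsa-mir-182 was the most abundant, with 6346 to 15269 counts, followed by hsa-mir-183 with 2853 to 11739 and hsa-mir-96 with 2167 to 3505. In HEK293E, hsa-mir-182 ranked between 59 and 92 among the 1485 hairpins, hsa-mir-183 between 74 and 131, and hsa-mir-96 between 156 and 169. Together the members took 0.563% to 0.938% of the counts in the HEK293E control libraries, 0.516% to 0.594% in the siERH libraries, and 0.435% and 0.561% in K562 with siGFP and siERH-5.

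The share of each member in the cluster's own counts does not depend on how libraries are scaled. In the HEK293E controls, hsa-mir-182 made up 49.8% ± 1.35 (SD, n = 4), hsa-mir-183 made up 36.4% ± 1.43 (SD, n = 4) and hsa-mir-96 made up 13.8% ± 2.20 (SD, n = 4). By library, hsa-mir-182 held 50.1% with siGFP and 51.4% with siControl in replicate 1, and 48.2% and 49.4% in replicate 2. hsa-mir-183 held 38.5% and 35.9% in replicate 1, and 35.6% and 35.5% in replicate 2. hsa-mir-96 held 11.4% and 12.6% in replicate 1, and 16.1% and 15.1% in replicate 2, so its share was higher in both replicate 2 controls than in both replicate 1 controls. Wilson 95% intervals were narrow at this depth, for example 11.0% to 11.7% and 15.5% to 16.7% for hsa-mir-96 with siGFP in replicates 1 and 2. They cover counting error only, and the 2 do not meet.

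With siERH in HEK293E, hsa-mir-182 held 52.0% with siERH-3 in both replicates and 53.9% with siERH-5, above all 4 controls. hsa-mir-183 held 34.3% and 33.3% with siERH-3 and 31.2% with siERH-5, below all 4 controls. hsa-mir-96 held 13.7% and 14.8% with siERH-3 and 14.9% with siERH-5, inside the range of the controls. The shares of a library add up to the whole, so the shifts of hsa-mir-182 and hsa-mir-183 are not separate results. As a background, siERH and control ratios did not overlap for 33.3% of 105 pairs of adjacent hairpins within 10 kb. The order of the members was the same in each of the 9 libraries.

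**Figure D1:**
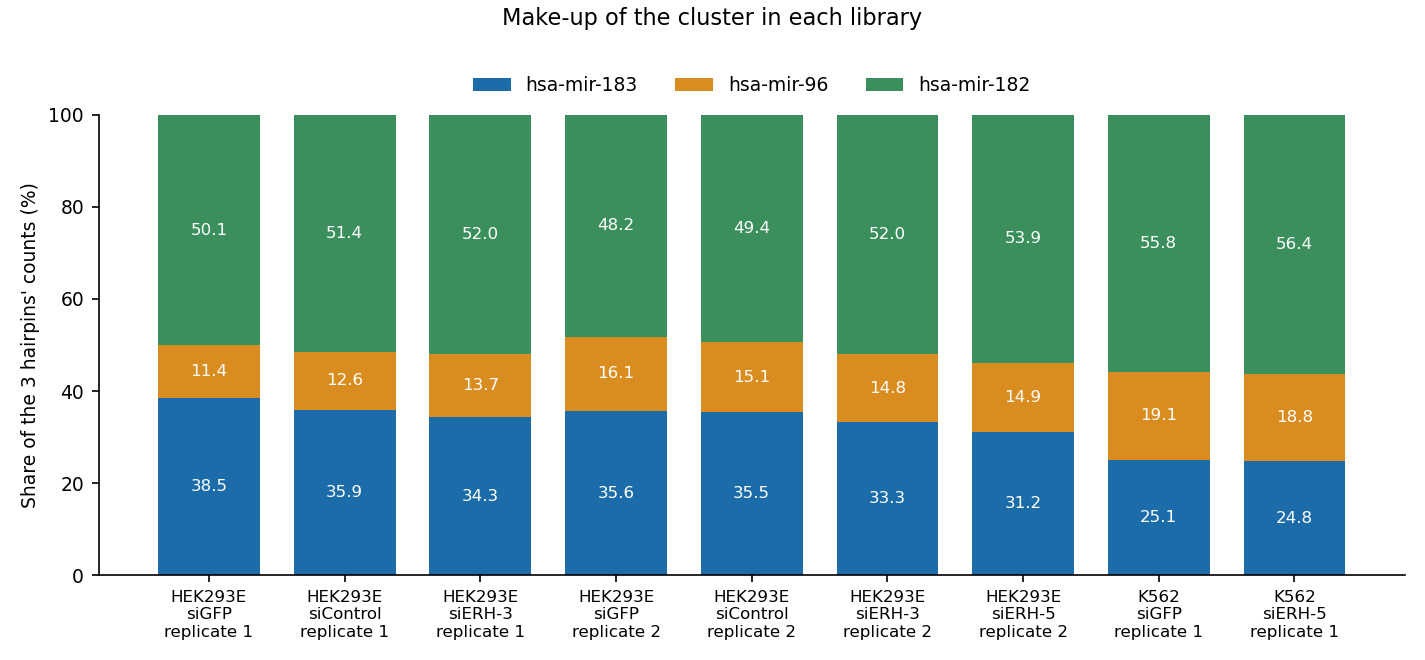
Share (%) of each hairpin in the summed counts of hsa-mir-183, hsa-mir-96 and hsa-mir-182, 1 bar per library. The hsa-mir-183 segment lies between 35.5% and 38.5% in the HEK293E controls, between 31.2% and 34.3% with siERH, and at 25.1% and 24.8% in K562.

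The HEK293E libraries were compared to ask whether levels of the members differ when ERH is targeted. All 3 hairpins fell with siERH, hsa-mir-183 to 60.7% of its control mean, hsa-mir-96 to 71.6% and hsa-mir-182 to 71.0%. Levels here are CPM, counts per 1e+06 of a library total scaled by TMM, a method that sets most hairpins to no change. The calls come from edgeR's quasi-likelihood test over 773 hairpins with Benjamini-Hochberg adjustment at 0.05. In that test 16.2% of the hairpins were called lower and 23.8% higher, or 40.0% in all, and the median log2 fold change was -0.01.

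hsa-mir-183, which stands first on the transcript, had 3352 CPM with siGFP and 3019 CPM with siControl in replicate 1, and 2208 and 2685 CPM in replicate 2. With siERH-3 it had 1794 and 1626 CPM in replicates 1 and 2, and with siERH-5 it had 1707 CPM. All siERH libraries were below all controls, and the controls spread far more than the siERH libraries did. The fitted log2 fold change of hsa-mir-183 was -0.72 with an SE of 0.17 (edgeR adjusted p = 0.00847).

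hsa-mir-96, the member whose seed is tied to hearing, had 990 and 1059 CPM with siGFP and siControl in replicate 1, and 999.7 and 1145 CPM in replicate 2. With siERH-3 it had 715 and 722 CPM, and with siERH-5 it had 816 CPM. The arms did not overlap, and the controls of the 2 replicates were at like levels. The fitted log2 fold change of hsa-mir-96 was -0.48 with an SE of 0.15 (edgeR adjusted p = 0.0261).

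hsa-mir-182, the last and most abundant member, had 4360 and 4321 CPM with siGFP and siControl in replicate 1, and 2988 and 3737 CPM in replicate 2. With siERH-3 it had 2722 and 2540 CPM, and with siERH-5 it had 2948 CPM. The arms did not overlap, but the siERH-5 library came close to the siGFP library of the same replicate. The fitted log2 fold change of hsa-mir-182 was -0.49 with an SE of 0.17 (edgeR adjusted p = 0.0388). On these CPM values the siERH libraries lay below all controls for 19.1% of the 773 hairpins and above them for 25.5%.

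**Figure D2:**
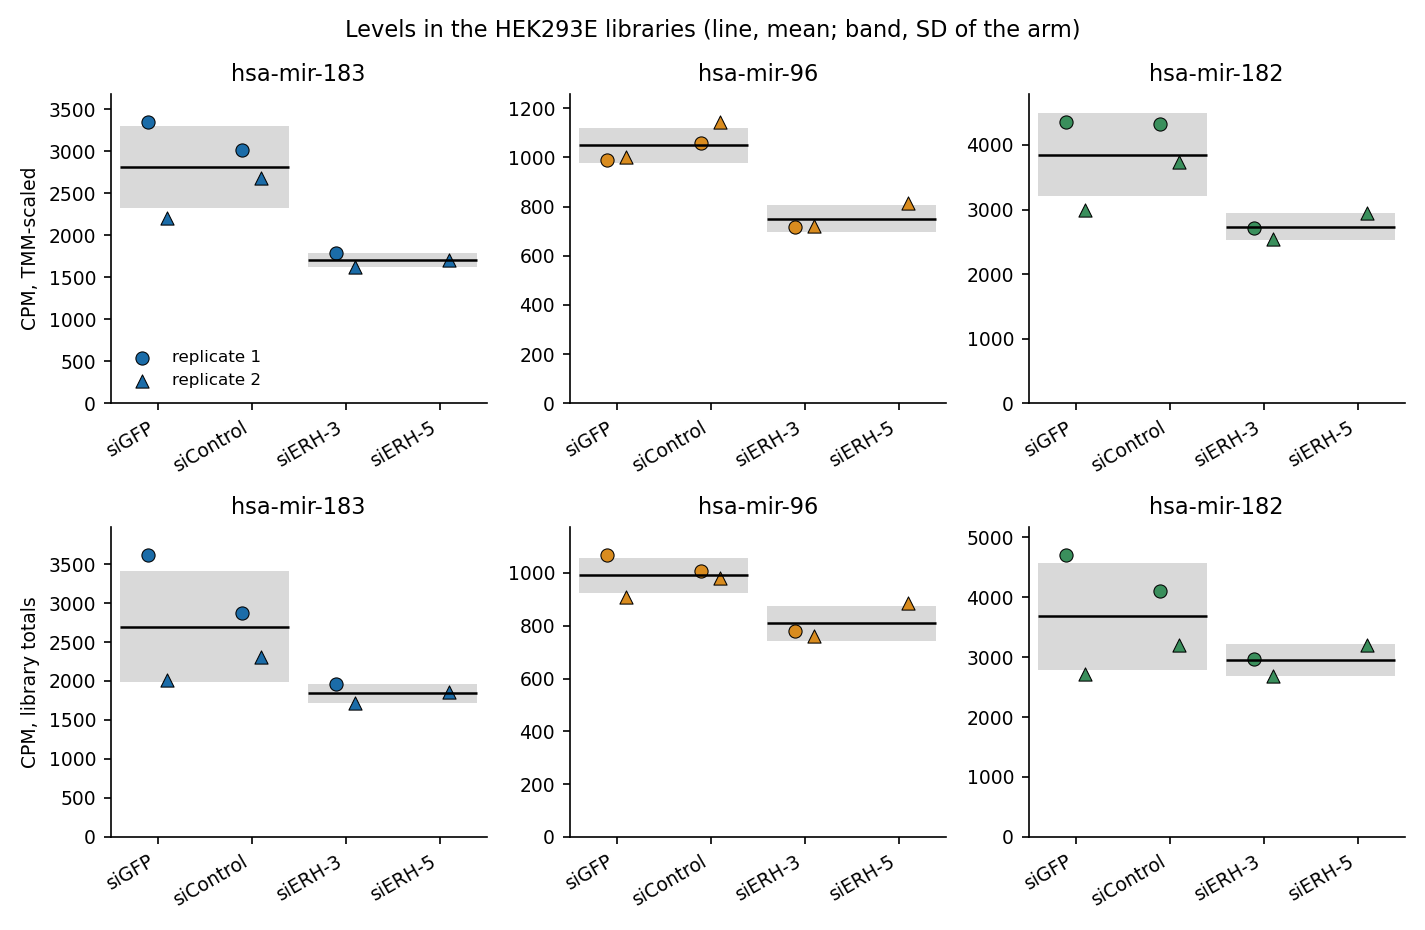
Levels of the 3 hairpins in the 7 HEK293E libraries by siRNA, as CPM scaled by TMM (top) and by library totals (bottom), with circles for replicate 1 and triangles for replicate 2. Lines are arm means and bands 1 SD, and for hsa-mir-182 on library totals the siERH-5 library at 3200 CPM lies above the lowest control at 2717 CPM.

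The size of the change depended on the scaling and on the replicate. On library totals without TMM the median of all hairpins moved by 0.20, and the log2 fold changes were -0.55 for hsa-mir-183, -0.29 for hsa-mir-96 and -0.32 for hsa-mir-182 (edgeR adjusted p = 0.056, 0.156 and 0.229). The split of all calls then moved from 40.5% lower to 24.0% lower. With TMM and a trend on the GC content of the mature arms removed, it was 53.2% lower, over the 697 hairpins with a mature sequence. Relative to the median of all hairpins, the 3 changes were -0.71, -0.47 and -0.48 with TMM and -0.74, -0.48 and -0.51 on library totals. A scaling shifts all hairpins of a library alike, so these differences from the median are close by construction and are no sign of stability.

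Control levels of hsa-mir-183 and hsa-mir-182 also differed between replicates. Replicate 1 controls were above replicate 2 controls by 0.39 and 0.38 on the log2 scale with TMM, and by 0.58 and 0.57 on library totals. For hsa-mir-96 the difference was -0.06 and 0.13. Within replicate 1, where siERH has 1 library, the siERH log2 difference was -0.83 for hsa-mir-183, -0.52 for hsa-mir-96 and -0.67 for hsa-mir-182 on TMM CPM. Within replicate 2, with 2 libraries in each arm, it was -0.55, -0.48 and -0.29 on TMM CPM, and -0.27, -0.20 and -0.01 on library totals. In replicate 2 alone, edgeR called hsa-mir-183 (adjusted p = 0.0251) but neither hsa-mir-96 (adjusted p = 0.099) nor hsa-mir-182 (adjusted p = 0.231). That fit called 99 of 770 hairpins lower and 182 higher. On library totals within replicate 2, hsa-mir-182 had 2681 and 3200 CPM with siERH against 2717 and 3207 CPM in the controls, so the arms overlapped.

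hsa-mir-183 kept its call whichever of the 7 libraries was left out, with edgeR adjusted p-values up to 0.0449. hsa-mir-96 lost its call without siControl replicate 1 (edgeR adjusted p = 0.0606), siERH-3 replicate 1 (0.124) or siERH-3 replicate 2 (0.113). hsa-mir-182 lost its call without siGFP replicate 1 (edgeR adjusted p = 0.0555), siControl replicate 1 (0.102), siERH-3 replicate 1 (0.137), siERH-3 replicate 2 (0.149) or siERH-5 replicate 2 (0.0767). With each library's trend on the GC content of the mature arms removed, the changes were larger, at -1.01, -0.85 and -0.81, and all 3 were called. In that fit 140 of 697 hairpins were called lower and 123 higher, against 125 and 184 of 773 with the trend left in.

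**Figure D3:**
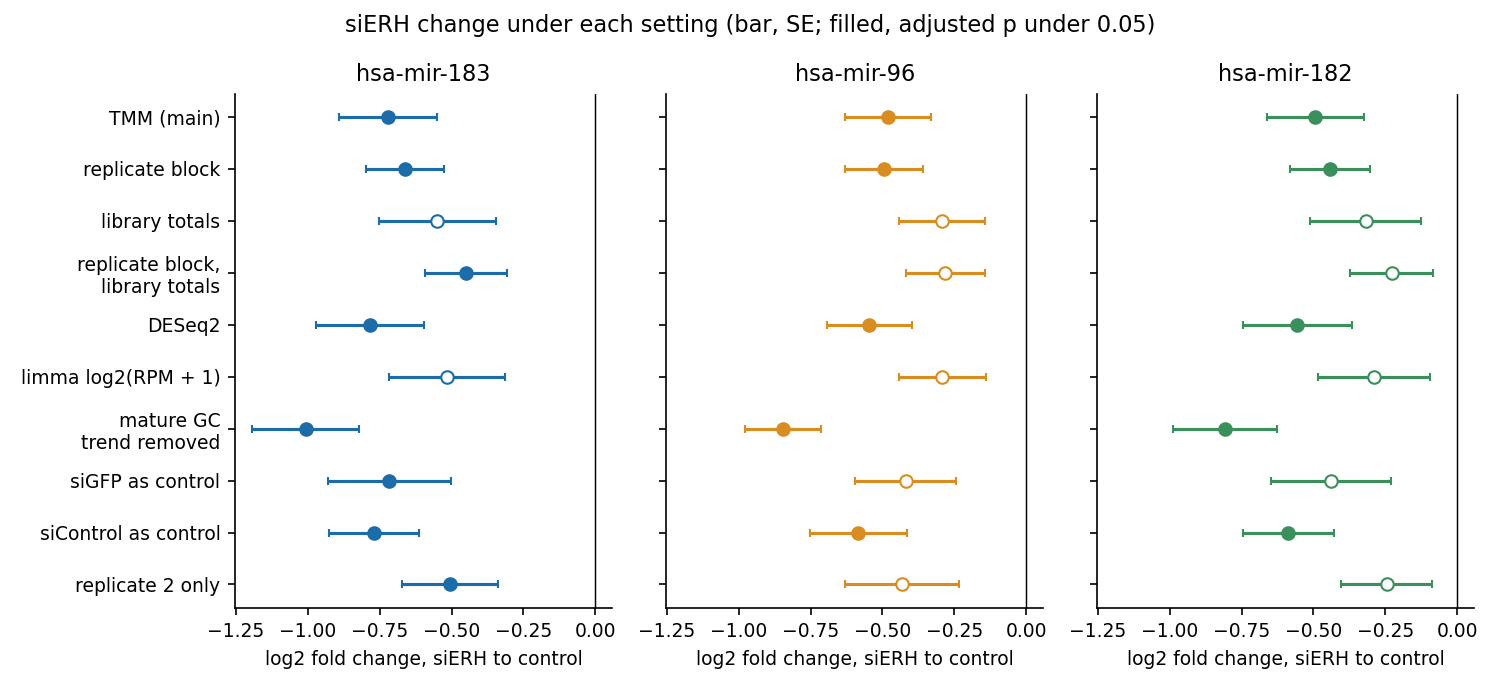
Log2 fold change of siERH against control in HEK293E for each hairpin under 10 settings, with SE bars and filled points where the adjusted p is under 0.05. Every point is below 0, from -1.01 for hsa-mir-183 with the mature GC trend removed to -0.23 for hsa-mir-182 with the replicate block on library totals.

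Some marker hairpins of other cell types moved with siERH too, and their part in the members' change was not tested. Of all 773 hairpins tested, 16.2% were called lower and 23.8% higher, so such calls are not particular to these markers. Of the neuronal pair, hsa-mir-124-1 fell from 188 ± 31.4 CPM (SD, n = 4) to 23.6 ± 0.935 CPM (SD, n = 3), and hsa-mir-9-1 did not pass (edgeR adjusted p = 5.5e-06 and 0.0975). Their summed level was 2748 to 3621 CPM in the controls and 2066 to 2418 CPM with siERH. Of the 3 erythroid hairpins hsa-mir-486-1 fell, with sums of 1042 to 1640 CPM and 884 to 935 CPM. Of the muscle hairpins hsa-mir-133a-1 fell, 1 of 2 tested, with sums of 27.4 to 56.5 CPM and 16.2 to 37.0 CPM. Of the other blood hairpins hsa-mir-142 rose, 1 of 2 tested, with sums of 109 to 229.7 CPM and 183 to 399 CPM. Of the 3 epithelial hairpins hsa-mir-200b fell, with sums of 395 to 527 CPM and 496 to 603 CPM. In bulk RNA, fewer cells of a type and less RNA per cell cannot be told apart.

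The siERH arm mixes siRNAs, so siERH-3 was also set alone against the 4 controls. The log2 fold change of hsa-mir-183 was -0.71 ± 0.21 (edgeR adjusted p = 0.0344). That of hsa-mir-96 was -0.54 ± 0.17 (edgeR adjusted p = 0.0466). hsa-mir-182 had -0.54 ± 0.21 and did not pass (edgeR adjusted p = 0.0767). With the replicate number as a block it did, at -0.53 ± 0.15 (edgeR adjusted p = 0.0156). With the block, 142 of the 759 hairpins tested were called lower and 200 higher, 342 in all. Without the block, 11.5% of 759 hairpins were called lower and 19.1% higher, or 30.6% in all. hsa-mir-182 passed also without siGFP replicate 2 (edgeR adjusted p = 0.0487). Both other calls were lost without siControl replicate 1 (edgeR adjusted p = 0.0915 and 0.100), siERH-3 replicate 1 (0.168 and 0.241) or siERH-3 replicate 2 (0.246 and 0.268), and that of hsa-mir-96 also without siGFP replicate 2 (0.0698) or siControl replicate 2 (0.0607).

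siERH-5 has 1 HEK293E library and no replicate check. Against the replicate 2 controls on TMM CPM, its log2 differences were -0.51 for hsa-mir-183, -0.39 for hsa-mir-96 and -0.18 for hsa-mir-182. On library totals they were -0.21, -0.0936 and 0.12, so the sign for hsa-mir-182 turned with the scaling. siERH-3 of the same replicate, which shares those controls, had -0.58, -0.57 and -0.40 on TMM CPM and -0.32, -0.31 and -0.14 on library totals. The siERH-5 library was thus above the siERH-3 library for each member, by 0.07, 0.18 and 0.22 on TMM CPM.

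The background was taken from the control siRNAs. Between siControl and siGFP, 2 libraries each, log2 fold changes were 0.02 ± 0.30 for hsa-mir-183, 0.14 ± 0.25 for hsa-mir-96 and 0.12 ± 0.29 for hsa-mir-182 (edgeR adjusted p = 0.989, 0.959 and 0.959). None of the 730 hairpins tested (0.0%) passed edgeR's adjusted threshold, with 24 at an unadjusted p under 0.05 and 2 lower and 2 higher calls by DESeq2. With the replicate block, 61 of the 730 were lower and 72 higher, which is 133 calls between 2 control siRNAs. None of the members was among them (edgeR adjusted p = 0.755, 0.457 and 0.376).

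Ratios of members within a library were then compared, to ask whether the hairpins changed unequally. The ratio of hsa-mir-182 to hsa-mir-183 was 1.30 with siGFP and 1.43 with siControl in replicate 1, and 1.35 and 1.39 in replicate 2. With siERH-3 it was 1.52 and 1.56 in replicates 1 and 2, and with siERH-5 it was 1.73. All siERH libraries were above all controls. Among 105 pairs of adjacent hairpins of 1 strand within 10 kb, siERH and control ratios did not overlap for 33.3%. hsa-mir-182 and hsa-mir-183 are not adjacent and are not among these pairs. The mean log2 ratio went from 0.45 ± 0.06 (SD, n = 4) to 0.68 ± 0.10 (SD, n = 3), a difference of 0.22 or 1.17-fold. A two-sided exact permutation test gave p = 0.0286, the smallest that 35 splits allow. After Benjamini-Hochberg adjustment over the 3 ratios it was 0.0857 and did not pass. An adjusted p under 0.05 needed another ratio at that smallest p too, so the adjusted value cannot decide on this ratio alone. The difference was 0.15 within replicate 1 and 0.26 within replicate 2. With the replicate block, meaning ratios centred within each replicate, it was 0.22 (two-sided exact permutation p = 0.111, over 18 splits whose smallest p is 0.0556).

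The ratio of hsa-mir-96 to hsa-mir-183, the neighbours that lie 135 bases apart, was 0.295 with siGFP and 0.351 with siControl in replicate 1, and 0.453 and 0.426 in replicate 2. It was 0.399 and 0.444 with siERH-3 and 0.478 with siERH-5, so the arms overlapped. Its log2 ratio averaged -1.41 ± 0.28 over the controls (SD, n = 4) and -1.19 ± 0.13 with siERH (SD, n = 3), which is 0.22 apart (two-sided exact permutation p = 0.314, adjusted 0.471). The ratio followed the replicate: both replicate 2 controls were above both replicate 1 controls. Within replicates the siERH difference was 0.31 and 0.07.

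The ratio of hsa-mir-96 to hsa-mir-182 was 0.227 and 0.245 in the replicate 1 controls and 0.335 and 0.306 in those of replicate 2. With siERH it was 0.263, 0.277 and 0.284, between the controls of the 2 replicates. Its log2 ratio averaged -1.86 ± 0.26 over the controls (SD, n = 4) and -1.87 ± 0.06 with siERH (SD, n = 3; two-sided exact permutation p = 1). Its sign differed between replicates, at 0.16 within replicate 1 and -0.19 within replicate 2.

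**Figure D4:**
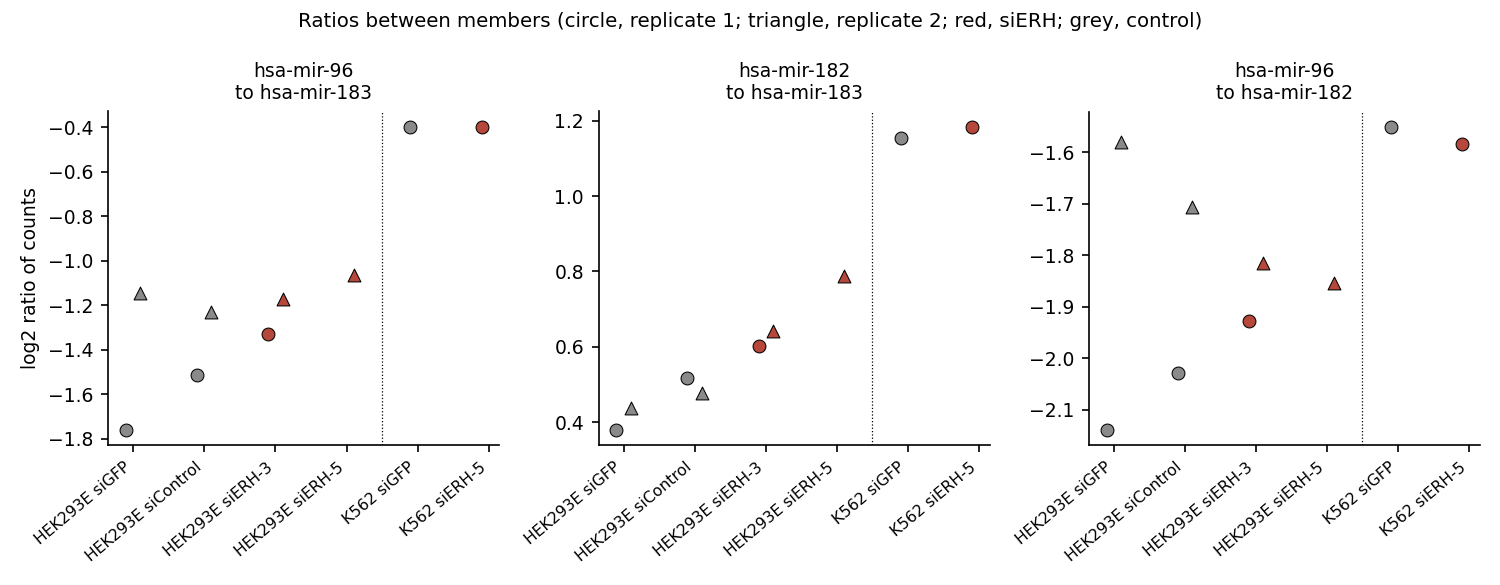
Log2 ratio of counts for the 3 pairs of members in the 9 libraries, by line and siRNA, with each panel on its own axis. For hsa-mir-182 to hsa-mir-183 the HEK293E siERH libraries (ratios 1.52 to 1.73) lie above the controls (1.30 to 1.43), and both K562 libraries lie above all HEK293E libraries.

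The 2 adjacent pairs of the cluster were set beside all adjacent hairpins of 1 strand that lie within 10 kb and reach 10 counts on average, 105 pairs in all. The siERH and control ratios did not overlap for 33.3% of these pairs, and neither pair of the cluster was among them. Sizes of the change on the log2 scale had a median of 0.42, with quartiles of 0.12 and 0.77, and reached 4.66. The pair of hsa-mir-183 and hsa-mir-96 came in position 70 by size, at 0.22, between hsa-mir-144 with hsa-mir-451a (0.26) and hsa-mir-200c with hsa-mir-141 (0.20). The pair of hsa-mir-96 and hsa-mir-182 came in position 100, at 0.0019, between hsa-mir-450a-2 with hsa-mir-450a-1 and hsa-mir-19b-2 with hsa-mir-92a-2. Both changes were thus below the median of neighbouring hairpins. For hsa-mir-96 to hsa-mir-182 the difference was 0.16 within replicate 1 and -0.19 within replicate 2, so 0.0019 is no sign of a steady ratio. The hairpins hsa-mir-450a-2 and hsa-mir-450a-1 are copies whose reads can be shared.

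**Figure D5:**
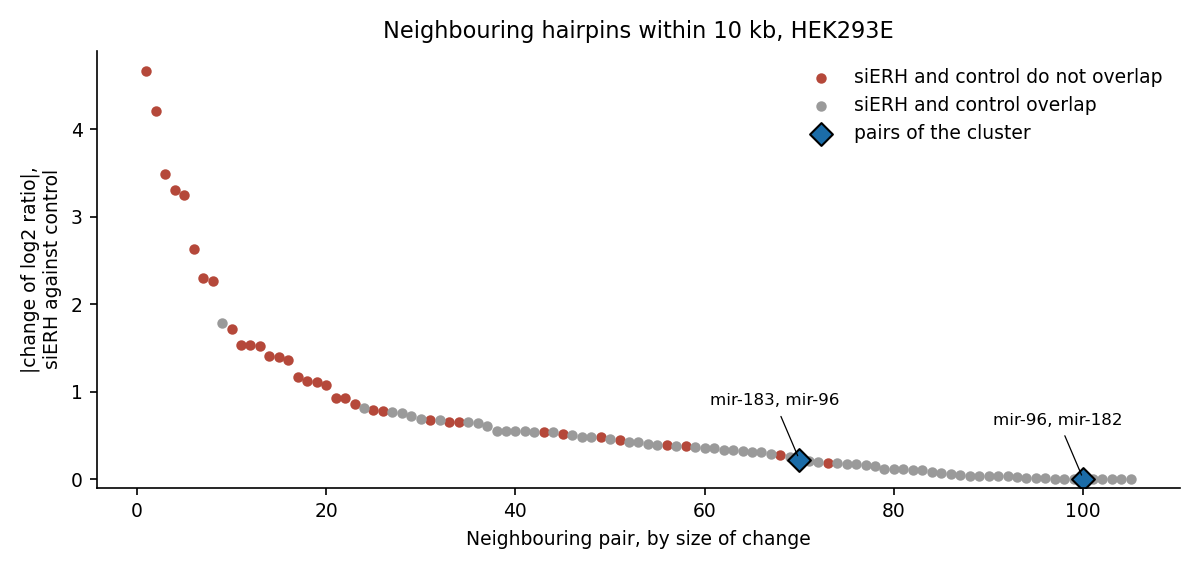
Size of the siERH change in the log2 ratio of 105 neighbouring hairpin pairs in HEK293E, sorted from the largest, with red where siERH and control libraries do not overlap. The cluster's pairs (diamonds) stand in positions 70 and 100, at 0.22 and 0.0019.

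In K562 the shares of the members with siERH-5 were close to those with siGFP. hsa-mir-183 held 25.1% of the cluster with siGFP (95% Wilson interval 24.3% to 25.9%) and 24.8% with siERH-5 (24.2% to 25.4%). hsa-mir-96 held 19.1% (18.4% to 19.8%) and 18.8% (18.2% to 19.4%), and hsa-mir-182 held 55.8% (54.9% to 56.7%) and 56.4% (55.7% to 57.1%). The log2 ratio of hsa-mir-182 to hsa-mir-183 differed by 0.03 (95% counting interval -0.05 to 0.11), that of hsa-mir-96 to hsa-mir-183 by -0.0033 (-0.11 to 0.10), and that of hsa-mir-96 to hsa-mir-182 by -0.03 (-0.12 to 0.06). These intervals cover counting error in 2 libraries and are no test of the conditions. The difference between the lines in the siERH change of a ratio was not tested, since K562 has 1 library per arm.

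Levels in K562 also moved little against the other hairpins. With TMM over the 2 K562 libraries, hsa-mir-183 had 1204 CPM with siGFP and 1263 CPM with siERH-5 (exact 95% Poisson intervals 1160 to 1249 and 1227 to 1299.97). hsa-mir-96 had 914 and 957 CPM, and hsa-mir-182 had 2678 and 2870 CPM. The log2 ratios were 0.07, 0.07 and 0.10, beside a median of 0.11 over 646 hairpins. None of the 3 was past 2-fold, where 6.81% of the hairpins were lower and 10.1% higher. On library totals the ratios were 0.35, 0.35 and 0.38 and the median 0.37, and with DESeq2 size factors they were -0.05, -0.06 and -0.02 and the median -0.00029, so their sign was set by the scaling.

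The control libraries of the lines were set side by side to show the level by line, with 1 K562 library and no test. In CPM of library totals, hsa-mir-183 had 2698 ± 707 (SD, n = 4) in HEK293E and 1091 in K562. In the same unit hsa-mir-96 had 991 ± 65.5 (SD, n = 4) and 829, and hsa-mir-182 had 3682 ± 889 (SD, n = 4) and 2428. The log2 ratios of HEK293E to K562 were 1.30, 0.26 and 0.60, where the median of 790 hairpins was 1.17. With TMM over all 9 libraries they were 0.21, -0.81 and -0.49 and the median 0.23, so the direction for hsa-mir-96 and hsa-mir-182 turned with the scaling. In K562 with siGFP the 10 most abundant hairpins held 42.8% of the counts, against 23.7% to 27.8% in the HEK293E controls. Relative to the median of all hairpins, hsa-mir-183 was near it on both scalings, while hsa-mir-96 and hsa-mir-182 stood higher in K562 than in HEK293E.

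The make-up of the cluster differed between the lines without regard to scaling. In K562 with siGFP the log2 ratio of hsa-mir-96 to hsa-mir-183 was -0.40, and the HEK293E control mean minus this value was -1.01. That of hsa-mir-182 to hsa-mir-183 was 1.15, with a difference of -0.70. The ratio of hsa-mir-96 to hsa-mir-182 was -1.55, with a difference of -0.31, and lay just above the highest HEK293E control at -1.58. For each ratio both K562 libraries lay on the same side of all 4 HEK293E controls, except that the siERH-5 library, at -1.58 for hsa-mir-96 to hsa-mir-182, lay below the highest of them.

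Within HEK293E the levels of the members were correlated, but each had a closer match outside the cluster. Pearson's r of log2(CPM + 1) over the 7 libraries was 0.97 between hsa-mir-182 and hsa-mir-183, 0.84 between hsa-mir-96 and hsa-mir-183, and 0.81 between hsa-mir-96 and hsa-mir-182. These libraries share arms, replicates and scaling. Among 416 other hairpins that reach 100 counts on average, the most like hsa-mir-183 were hsa-mir-375, known from pancreatic islets, hsa-mir-1292 and hsa-mir-151a, with r of 0.98, 0.97 and 0.96. hsa-mir-375 went from 384 ± 64.7 CPM (SD, n = 4) to 213 ± 29.3 CPM (SD, n = 3). It was picked by its likeness over these same libraries, so its fall is not a separate result. Most like hsa-mir-96 were the copies hsa-mir-450a-2 and hsa-mir-450a-1 (both 0.98) and hsa-mir-98, a let-7 relative (0.96). Most like hsa-mir-182 were the copies hsa-mir-125b-1 (0.98) and hsa-mir-125b-2 (0.97), and hsa-mir-129-2 (0.97).

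Other hairpins with a tie to the cluster were taken from lists. The only hairpin in the table with a mature arm that shares a member's seed was hsa-mir-1271, whose 5p arm has the seed of hsa-miR-96-5p and is shown to mark that match.
hsa-miR-1271-5p: cUUGGCACcuagcaagcacuca
Its level was 170 ± 23.4 CPM over the controls (SD, n = 4) and 153 ± 15.2 CPM over the siERH libraries (SD, n = 3), and its log2 fold change of -0.15 ± 0.19 did not pass (edgeR adjusted p = 0.551). In K562 it had 6 and 11 counts, against 2167 and 3505 for hsa-mir-96.

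Of 7 listed hairpins of 7q31 to 7q34, 5 could be tested, 2 fell and none rose, beside 16.2% lower and 23.8% higher of all hairpins tested. Their median log2 fold change was -0.30, beside -0.01 over all. hsa-mir-29a, known as a brake on collagen genes, fell from 5741 ± 122 CPM (SD, n = 4) to 3643 ± 398 CPM (SD, n = 3), by 0.66 on the log2 scale (edgeR adjusted p = 0.00506). Its cluster partner hsa-mir-29b-1 had -0.30 ± 0.21 and did not pass (edgeR adjusted p = 0.286). hsa-mir-129-1, whose counts can be shared with hsa-mir-129-2, fell by 0.73 (edgeR adjusted p = 0.0477). hsa-mir-592 had -0.02 ± 0.31 (edgeR adjusted p = 0.966).

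The miR-200 family, which guards the epithelial state and is often named with this cluster in epithelia, was measured in all 5 members, of which 3 fell and none rose, beside the same 16.2% and 23.8% over all hairpins. Its log2 fold changes ran from -1.78 to 0.41, with a median of -0.99 beside -0.01 over all. hsa-mir-200a went from 59.5 ± 10.2 to 17.3 ± 2.93 CPM and hsa-mir-200b from 28.2 ± 3.70 to 14.1 ± 3.16 CPM (SD, n = 4 and 3), with edgeR adjusted p-values of 0.000265 and 0.00776, and hsa-mir-429 was the third. hsa-mir-200c and hsa-mir-141 had 0.41 ± 0.21 and 0.25 ± 0.18 and did not pass (edgeR adjusted p = 0.149 and 0.309).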

How the data were processed

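Small RNA of 18 to 30 nt was sequenced in 9 libraries, per the labels' protocols. The authors deposited raw counts per hairpin and RPM values, and blank cells, 2336 in number, were read as 0. Recomputed here, the deposited RPM was the count plus 1 per 1e+06 of the library total plus 1485, within a relative 1.1e-09. The submitters' processing notes name cutadapt, Bowtie2, bedtools and hg38. Versions, miRNA annotation, read collapsing and the treatment of reads that fit several hairpins are not given in the sources used here. The added spike-ins stay out of every value, so all levels are relative.

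Hairpins averaging 10 counts or more in a comparison were tested with edgeR 4.0.16 (R 4.3.3), TMM scaling, quasi-likelihood test and Benjamini-Hochberg adjustment at 0.05. The SE is the log2 fold change over the square root of F. Alternatives used DESeq2 1.42.0, limma 3.58.1 on log2 of deposited RPM, other filters, left-out libraries and the replicate number as a block. Same-numbered libraries deviated together (Pearson's r across hairpins between siRNAs of 0.67, 0.46 and 0.50), and the labels give them a shared experimental group. Ratios used raw counts, with 0.5 added for a neighbouring pair where either hairpin had a 0, and two-sided exact permutation tests. K562 and line ratios used CPM plus 1. Scripts were tested on simulated data; for siERH against control with 773 hairpins, 145 of 200 changed 2-fold were recovered (72.5%), 0 with the wrong sign, and 9 unchanged hairpins were called, while a simulation with no change at all gave 0 calls. Other steps ran in Python 3.11.15 with scipy 1.17.1, pandas 2.3.3, numpy 2.4.6 and, for plots, matplotlib 3.10.9.

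Members and lists were chosen with earlier results of these data known. Named hairpins were the 3 members, the 3 most correlated with each in HEK293E, seed relatives, the listed 7q31 to 7q34 hairpins, the miR-200 family, and the neighbouring pairs next to the cluster's pairs by size of change. From a list, up to 4 with the highest mean counts were given with values. Positions are those of GENCODE release 29, found for 1480 hairpins by name. RefSeq gave mature sequences for 1325 and hairpin sequences for 1168 of the 1485. hsa-mir-593 and the hsa-mir-183 hairpin sequence were not used here.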

Additional observations from a re-analysis of the deposited data

Results flagged for a closer look

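Outliers were sought in 12 sets of 4 HEK293E control values, and 1 held one, where chance gives about 1 in 20. The hsa-mir-183 share was 38.5% with siGFP in replicate 1, apart from the other 3 controls at 35.5% to 35.9%.

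All 3 members were below the same-replicate controls in each HEK293E siERH library on TMM CPM, but above siGFP in the K562 siERH-5 library, by 0.0692 for hsa-mir-183, 0.0659 for hsa-mir-96 and 0.10 for hsa-mir-182 on the log2 scale. The difference between the lines was not tested, K562 has 1 library per arm, and its median over all hairpins was 0.11. With DESeq2 size factors the K562 values were below 0.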

How the results depend on the processing

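One choice was changed at a time, apart from pairs of choices named as such. The mature GC trend, and library totals with the replicate block or within replicate 2, were chosen after the data were seen. The planned trend on hairpin GC content is void, since 78.1% of the hairpins tested have a hairpin sequence. In the comparisons of siERH and of siERH-3 with control, the log2 fold changes of all 3 members stayed negative under every alternative run. The 1 siERH-5 library alone did not, with 0.12 for hsa-mir-182 against its replicate's controls on library totals. Causes were not tested.

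For siERH against control in HEK293E (-0.72, -0.48 and -0.49 for hsa-mir-183, hsa-mir-96 and hsa-mir-182), values past the threshold no longer were at -0.55, -0.29 and -0.32 by library totals, -0.51, -0.29 and -0.29 in limma from log2(RPM + 1), -0.51, -0.29 and -0.29 on log2(RPM + 10), and -0.27, -0.20 and -0.0103 within replicate 2 on library totals. For hsa-mir-96 and hsa-mir-182 this also held with siGFP alone as control (-0.42 and -0.44), within replicate 2 (-0.43 and -0.25) and with the replicate block on library totals (-0.28 and -0.23), and for hsa-mir-182 with a mean of at least 100 counts (-0.44). Leaving out 1 library gave -0.83 to -0.63, -0.54 to -0.42 and -0.61 to -0.43. The replicate block changed no call here (-0.66, -0.50 and -0.44). With that block 159 of 773 hairpins were called lower and 217 higher, 376 in all, so a kept call is not particular to the members. Between siControl and siGFP the block called 61 of 730 hairpins lower and 72 higher, with no member among them. Adjusted p-values of the members for siERH against control ran from 0.00018 to 0.194, 0.000248 to 0.471 and 0.00104 to 0.969.

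For siERH-3 (-0.71, -0.54 and -0.54), calls of hsa-mir-183 and hsa-mir-96 were lost on library totals (-0.55 and -0.36), with limma (-0.52 and -0.36, then -0.52 and -0.35), with a mean of at least 100 counts for hsa-mir-183 (-0.66), and without a filter (-0.63) or with the block on library totals (-0.36) for hsa-mir-96. hsa-mir-182 passed with DESeq2 (-0.60), the replicate block (-0.53), the mature GC trend removed (-0.82) and both (-0.80). Across hairpins, DESeq2 called 118 lower and 135 higher of 759, and the mature GC trend removed gave 104 and 100 of 684. Leaving out 1 library gave -0.81 to -0.62, -0.57 to -0.49 and -0.64 to -0.48, with 1 siERH-3 library assumed to vary like the other groups where the second was left out.

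For siControl against siGFP, hsa-mir-183 (0.02) turned on library totals (-0.12), with a mean of at least 100 counts (-0.0014), with limma (-0.0676 and -0.0675), with the mature GC trend removed (-0.0419, and -0.0088 with the replicate block) and with the block on library totals (-0.0687). hsa-mir-182 (0.12) turned on library totals (-0.0211). Leaving out 1 library gave -0.26 to 0.38, 0.08 to 0.19 and -0.14 to 0.45.

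The hsa-mir-182 to hsa-mir-183 ratio (0.22) was 0.216 with the replicate block, 0.15 in replicate 1 alone and 0.17 with siERH-3 alone. Leaving out 1 library gave 0.17 to 0.26, where fewer splits allow no p under 0.05. The hsa-mir-96 to hsa-mir-182 ratio (-0.0019) was 0.16 in replicate 1 alone and -0.0937 to 0.0927 with 1 library left out.

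In K562 the values (0.07, 0.07 and 0.10) were 0.35, 0.35 and 0.38 on library totals, 0.352, 0.348 and 0.383 on deposited RPM, and -0.0532, -0.0565 and -0.0223 with DESeq2 size factors. HEK293E against K562 (0.21, -0.81 and -0.49) gave 1.30, 0.26 and 0.60 on library totals, and -0.94 for hsa-mir-96 with DESeq2 size factors.

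Over all hairpins, the siERH comparison (125 lower and 184 higher of 773) had 67 lower by library totals and 66 and 63 by limma. Within replicate 2 on library totals it had 53 of 770 lower. With a mean of at least 100 counts it had 63 lower and 82 higher, but of only 419 hairpins tested. Leaving out 1 library gave 76 to 130 lower and 136 to 189 higher. For siERH-3 (87 and 145 of 759), 47 and 48 were lower by limma, 48 by library totals and 142 with the replicate block. With the block on library totals 237 were higher. The block with the mature GC trend had 161 lower of 684 tested. A mean of at least 100 counts gave 46 lower and 69 higher of 413 tested. Leaving out 1 library gave 19 to 102 lower and 42 to 152 higher. For siControl against siGFP (0 and 0 of 730), the filter left off gave 2 and 2 of 1385. The block with the mature GC trend gave 39 and 46 of 656, and the block on library totals 112 and 36 of 730.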
